A study of Mus musculus with 2 samples.

Results

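The genes described here are 10 components of desmosomes and of the plakin scaffold of the epidermis. They are the desmocollins Dsc1, Dsc2 and Dsc3, the desmogleins Dsg2 and Dsg3, the plakins Dsp, Ppl and Evpl, and the plakophilins Pkp1 and Pkp3. They were chosen by name, as all probes that carry one of these symbols in the table of non-normalized intensities. That rule found 11 probes of 8 genes, out of 17873 genes on the array. Dsp and Evpl had no probe under their own symbols. A single probe listed as 5730453H04Rik, which RefSeq gives as an older name of Dsp, is described with the plakins and is not counted among the members.

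The data are gene expression profiles, from Illumina bead arrays, of wounded back skin of C57BL6 mice that were all fed a low calcium diet. The knockout mice were b-catenin fl/fl with a Cre that K14 drives. This design is meant to delete beta-catenin in K14-expressing keratinocytes and in the cells that descend from them. Cells of the skin outside that lineage kept the gene. The controls were b-catenin fl/fl littermates, which carry the floxed alleles too. All mice were 3 months old when wounds were made through the full skin with a 6-mm punch, and an 8-mm punch was used 3 days later to excise them. Each group was 1 array of RNA pooled from 3 mice, and the sexes are not given in the labels. Every difference below is therefore between 2 arrays, with no replicate, no error over mice and no test. Because the RNA came from whole tissue, fewer cells of a type and less RNA per cell cannot be told apart.

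Desmosomes are patches of strong adhesion between neighbouring cells. Desmocollins and desmogleins, the desmosomal cadherins, bind across the gap between cells in the presence of calcium. Inside the cell, plakoglobin and the plakophilins join their tails to desmoplakin, the product of Dsp, which anchors keratin filaments. Periplakin and envoplakin, the products of Ppl and Evpl, are related plakins that become part of the cornified envelope of the outermost epidermis. In wounds, keratinocytes at the margin remodel these contacts as they migrate, and beta-catenin, the partner of classical cadherins in adherens junctions, is a close relative of plakoglobin.

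Of the 8 genes with a probe, 6 were detected, all of them on both arrays, and 2 (Dsc2 and Dsg2) were detected on neither. The 6 genes did not move one way. Dsc1 and Dsc3 read lower in the knockout array, 1.48-fold and 1.34-fold, and Ppl read 1.18-fold lower. Dsg3, Pkp1 and Pkp3 read 1.06-fold, 1.04-fold and 1.15-fold higher, although Dsg3 and Pkp1 lay just below 0 under another scaling given further on. None of the 6 reached 1.5-fold in either direction, the size used here to count genes. Among all 9705 detected genes, 7.99% reached it, 4.47% lower and 3.51% higher. The median log2 fold (knockout over control) was -0.09 over the 6 genes and 0.00 over all detected genes. It was 0.06 with the older-named Dsp probe counted and 0.02 with the undetected genes included.

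A probe counted as detected at a raw intensity of at least 181.8 on the control array or 177.9 on the knockout array, where fewer than 1% of negative control beads were as bright. Raw intensities are the authors' non-normalized bead signals in arbitrary units, and normalized intensities are background-corrected and quantile-normalized values. The knockout array was the dimmer (median raw intensity 173.5 against 177.3), and the median raw log2 fold of all detected genes was -0.14. A lower raw value in the knockout array is thus common to many genes, and the normalized values remove that shift.

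**Figure D1:**
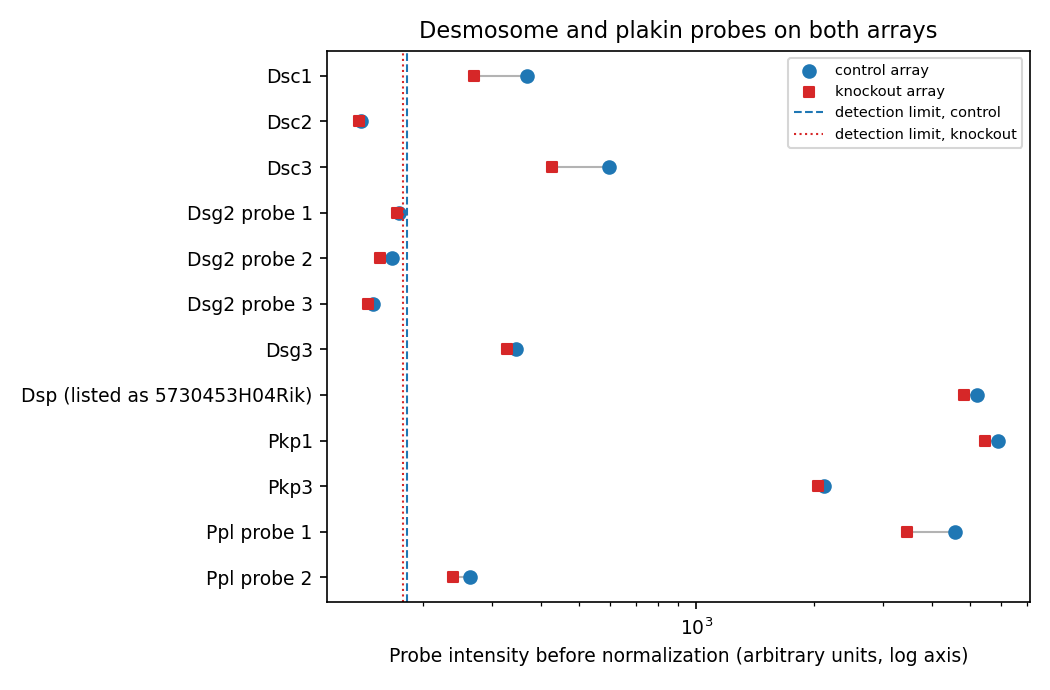
Raw probe intensity (arbitrary units, log axis) of the 11 member probes and the older-named Dsp probe on the control array (circles) and the knockout array (squares), with each array's detection limit as a vertical line. Dsc2 and the 3 Dsg2 probes lie below both limits, and the widest gaps between the arrays are those of Dsc1, Dsc3 and the brighter Ppl probe (probe 1).

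Among the desmosomal cadherins, both detected desmocollins read lower in the knockout array and the detected desmoglein did not. Dsc1, the desmocollin of the differentiated upper layers, was read by 1 probe (ILMN_2723533) at a raw intensity of 370 on the control array and 269.9 on the knockout array. Its normalized intensity was 222 on the control array and 150 on the knockout array, a log2 fold of -0.57. Of all detected genes, 4.95% had a lower log2 fold.

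Dsc3, the desmocollin of the basal and lower layers, had a raw intensity of 598.8 on the control array and 427.2 on the knockout array (ILMN_2694220). Its normalized intensity was 431 and 322, a log2 fold of -0.42, and 9.91% of detected genes had a lower one. So the upper-layer and the lower-layer desmocollin both stood toward the lower end of detected genes.

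Dsg3, the desmoglein of the lower epidermis and the antigen of pemphigus vulgaris, had a raw intensity of 346.6 on the control array and 327.5 on the knockout array (ILMN_2658660). Its normalized intensity was 201 and 212, a log2 fold of 0.08. The log2 folds of Dsc1 and Dsc3 were lower than that of Dsg3 by 0.64 and 0.50.

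Dsc2 and Dsg2, the pair that simple epithelia and heart muscle use, were below the limits on both arrays. The Dsc2 probe (ILMN_2731310) read 138.9 on the control array and 137.4 on the knockout array. The Dsg2 probe nearest to detection (ILMN_1242566) read 173.5 and 171.6, and its other probes read 166.5 and 155.3 (ILMN_2955047) and 149 and 144.9 (ILMN_1215475). These values give no fold, since an intensity at the level of the negative controls bounds the transcript only from above. The detected member probe nearest to the limits was the dimmer Ppl probe, at 264.4 on the control array and 238 on the knockout array.

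Of the plakophilins, which strengthen desmosomes and cluster their components, Pkp1 read nearly alike on the arrays and Pkp3 somewhat higher in the knockout array. Pkp1, the plakophilin of suprabasal epidermis whose loss in people causes skin fragility, had a raw intensity of 5904.5 on the control array and 5482.3 on the knockout array (ILMN_2762109). Its normalized intensity was 5457 and 5678, a log2 fold of 0.06. Pkp3, found through all epidermal layers, had a raw intensity of 2116.8 and 2042.2 (ILMN_2652890). Its normalized intensity was 1829 and 2096, a log2 fold of 0.20, which was 0.05 under median scaling (0.15 relative to the shift of all genes) and -0.05 in the non-normalized intensities.

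Of the plakins, Ppl read lower in the knockout array on both of its probes. The brighter Ppl probe (ILMN_3155363) had a raw intensity of 4595.2 on the control array and 3462.7 on the knockout array, normalized to 4234 and 3576, a log2 fold of -0.24. The dimmer Ppl probe (ILMN_3076424) had a raw intensity of 264.4 and 238, normalized to 124 and 115, a log2 fold of -0.11. The 2 readings of this gene shared their direction and differed by 0.14 on the log2 scale.

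The probe under the older name of Dsp (ILMN_2654997) had a raw intensity of 5208.4 on the control array and 4827.8 on the knockout array. Its normalized intensity was 4790 and 4993, a log2 fold of 0.06. Its transcript accession was not matched to Dsp, which rests on the name alone. Evpl was not analysed here, so Ppl is described without its partner.

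How far probes of one gene differ can be read from genes that have several. Over 2388 genes with at least 2 detected probes, the log2 folds of probes of one gene scattered with an SD of 0.26 (5634 probes). The SD was 0.25 at normalized intensities of 100 to 300, 0.17 at 300 to 1000 and 0.14 above 1000. Below 100 the SD was 0.41, and 21.7% of the 1887 genes there were at least 1.5-fold apart. Tgm3, Prkca, Krt86, Krt33a and Myh7, named further on, lay below 100 on both arrays. The spread between probes covers one pair of arrays and leaves out the spread between mice and between arrays. Ratios to it are therefore descriptive and are no test of a difference.

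Against the SD of its own intensity range, the log2 fold of Dsc1 was 2.27 times as large, that of Dsc3 2.48 times and that of Ppl 1.73 times. Pkp3 stood at 1.39 times, Pkp1 at 0.41 and Dsg3 at 0.31, so the last pair differed between the arrays by less than probes of one gene do. Differences of the size of Dsc1 and Dsc3 were still not rare among genes as bright. Among the 2247 genes at 100 to 300, 5.43% read at least as far below 0 as Dsc1, and among the 2617 genes at 300 to 1000, 8.10% did so for Dsc3. For Ppl the share was 13.2% of 2954 genes above 1000, and on the other side 15.6% read at least as high as Pkp3.

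**Figure D2:**
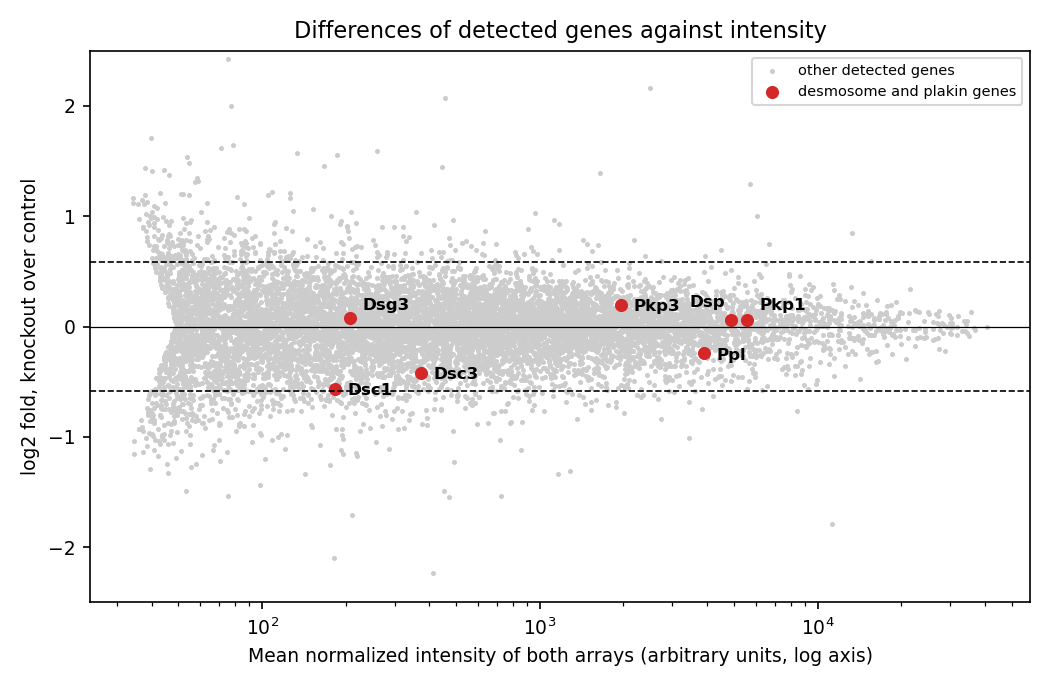
log2 fold (knockout over control) of each detected gene against its mean normalized intensity (arbitrary units, log axis), with the 6 detected members and the older-named Dsp probe in red and dashed lines at 1.5-fold. Dsc1 lies just inside the lower line at -0.57, while Dsg3, Pkp1 and Dsp lie near 0. The 4 genes beyond 2.5 on the log2 scale are not shown.

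The direction of Dsc1, Dsc3 and Ppl held under each of the 5 treatments of the intensities of the same 2 arrays, and the sizes did not. In the non-normalized intensities all 7 detected member probes read lower in the knockout array, so direction alone says little there. Relative to the median of all detected genes, Dsc1 then stood at -0.31, Dsc3 at -0.35 and Ppl at -0.27. In the intensities as the authors normalized them, with background signal kept, Dsc1 was 1.25-fold lower (326.2 against 260.9), Dsc3 1.25-fold lower (524.4 against 420.1) and Ppl 1.17-fold lower (4165.5 against 3558.9). With the arrays scaled to one median in place of quantile normalization, Dsc1 was 1.60-fold lower. That scaling moved the median log2 fold of all detected genes to -0.10, and relative to it Dsc1 stood at -0.57, Dsc3 at -0.45 and Ppl at -0.22. Under it Dsg3 (-0.03) and Pkp1 (-0.01) lay on the other side of 0, and relative to the shift of all genes they stood at 0.07 and 0.10.

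**Figure D3:**
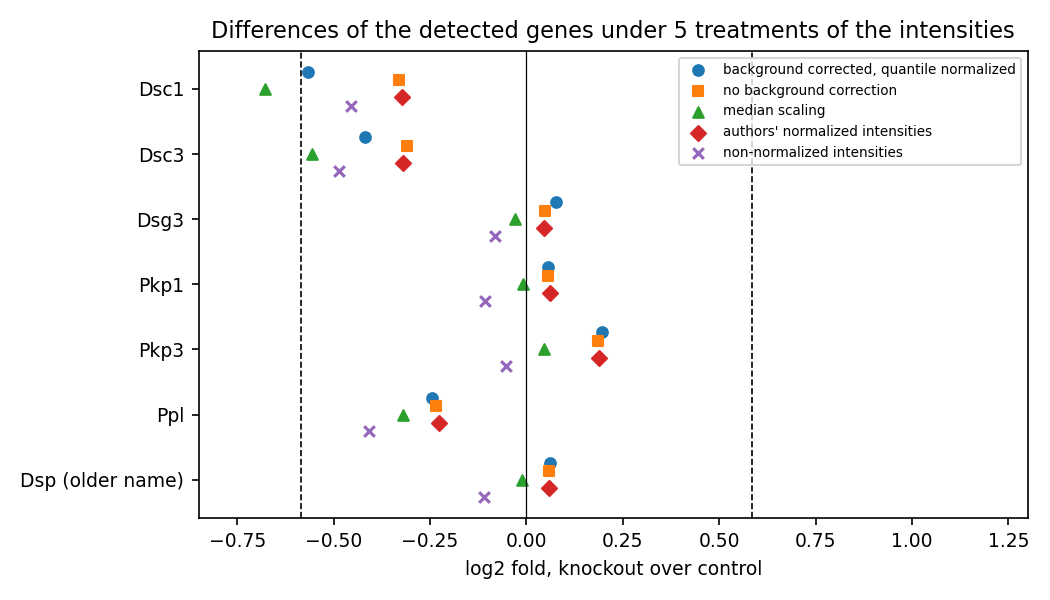
log2 fold (knockout over control) of the 6 detected genes and the older-named Dsp probe under 5 treatments of the intensities, with dashed lines at 1.5-fold. Dsc1, Dsc3 and Ppl lie below 0 throughout, Dsc1 passes the line only under median scaling (-0.68), and the non-normalized values of every gene lie below 0.

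The desmosomal cadherin genes lie together on their chromosome. In the RefSeq table of mouse genes they form one block in the order Dsc3, Dsc2, Dsc1, Dsg1c, Dsg1a, Dsg1b, Dsg4, Dsg3 and Dsg2. The desmocollin end of the block held both genes that read lower (Dsc3 at -0.42 and Dsc1 at -0.57, log2 fold). The detected desmogleins further along, Dsg1b (0.14) and Dsg3 (0.08), lay slightly above 0 (Dsg3 at -0.03 under median scaling), and the remaining genes of the block were not detected. Ttr, the transthyretin gene that follows Dsg2, was detected and read -0.22. Because the desmocollins lie at one end and the desmogleins at the other, the order restates the split between these families. A link between position and the differences was not tested.

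The other detected desmosome genes stayed within 1.5-fold apart from Pkp2. The shares of all detected genes to set beside this and the later list counts are 3.51% higher and 4.47% lower. Of 7 with a probe, 4 were detected, and 1 was at least 1.5-fold higher and 0 were at least 1.5-fold lower, with a median log2 fold of 0.12 (0.02 under median scaling). Jup, which encodes plakoglobin, read 170 on the control array and 182 on the knockout array (normalized intensity, log2 fold 0.10). Dsg1b, a desmoglein of the upper epidermis whose near copies Dsg1a and Dsg1c may share its probe, read 153 and 168 (0.14).

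Pkp2, the plakophilin of simple epithelia and heart, read 117 on the control array and 181 on the knockout array (normalized intensity, log2 fold 0.64), and its other detected probe read 105 and 131 (0.32). The authors' normalized intensities gave 1.25-fold for the first of these, and median scaling 1.45-fold, so the list then held no gene past 1.5-fold. Perp, a p63 target needed for desmosome assembly, was detected in the control only, at a raw intensity of 186.6 against 170.9, at least 1.07-fold lower in the knockout. Dsg1a, Dsg1c and Dsg4, the last a desmoglein of hair, were not detected, and Pkp4 was not analysed here.

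Of the other plakins, 3 were detected and none reached 1.5-fold, with a median log2 fold of 0.10 (0.03 under median scaling). Plec, whose product plectin links keratins to hemidesmosomes, read 14110 on the control array and 14200 on the knockout array on its brightest probe (normalized intensity, log2 fold 0.01) and 1441 and 1585 on its other detected probe (0.14). The remaining 12 of its 14 probes, listed under various transcripts, were not detected. Eppk1, the epiplakin of keratin bundles, read 4479 and 4796 (0.10).

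Dst, whose epithelial product is the hemidesmosomal plakin BPAG1, read 113 on the control array and 161 on the knockout array (0.50), with the second of its 2 detected probes at 0.52; the authors' values gave 1.18-fold. The other 5 Dst probes were not detected. Macf1 was not analysed here.

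Most detected genes of the structures that desmosomes work with stayed within 1.5-fold. In the hemidesmosome list 6 genes were detected, with 1 at least 1.5-fold lower, 0 higher and a median log2 fold of -0.08, or 0.02 with the mean of detected probes. That gene was Itga6, the basal integrin chain, detected in the control only (raw intensity 247.6 against 175.3) so that the knockout lay at least 2.19-fold below it. The authors' normalized intensities gave 1.31-fold. Col17a1, the transmembrane collagen of hemidesmosomes, read -0.17 and Lamb3, a chain of laminin-332, -0.16.

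Of the 7 detected adherens junction genes none reached 1.5-fold (median 0.02, or -0.03 under median scaling). Vcl (vinculin) stood at 0.37 and Cdh3 (P-cadherin) at 0.10. Nectin1 was detected in the control only, too close to the limit to give a bound (raw intensity 182.6 against 165.9).

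Keratins form the filaments that desmoplakin anchors. Of 12 detected keratins in the basal, suprabasal and wound-induced lists, none was 1.5-fold apart, and the list medians were 0.05, 0.28 and 0.11. Among basal keratins the log2 folds were 0.14 for Krt5, -0.11 for Krt15 and 0.05 for Krt14. Among suprabasal ones, Krt1, an early marker of differentiation, read 0.48, Krt78 0.39 and Krt77 -0.38. Of the keratins induced by wounding, Krt6b stood at 0.34, Krt16 at 0.13 and Krt17 at 0.10, and Krt6b has a close paralog in Krt6a. Of 9 hair shaft and sheath markers with a probe, 2 were detected, both keratins, on the knockout array only. Krt86 lay at least 1.15-fold and Krt33a at least 1.13-fold above the control, and both count as 1.5-fold higher by their measured values alone.

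In the list of cornified envelope partners of Ppl, 9 genes were detected, with 1 at least 1.5-fold higher and 0 lower. The median was 0.14, but 0.01 under median scaling and 0.02 with the mean of detected probes. The highest was the crosslinking enzyme Tgm3 (55.4 against 96.5 in normalized intensity, log2 fold 0.80), at 1.20-fold in the authors' normalized intensities. Its raw intensity was 189.7 on the control array, close to the detection limit of 181.8, and 220.4 on the knockout array. Next in size were Scel, the envelope protein sciellin (-0.31), and the small proline-rich protein Sprr1a (0.28).

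**Figure D4:**
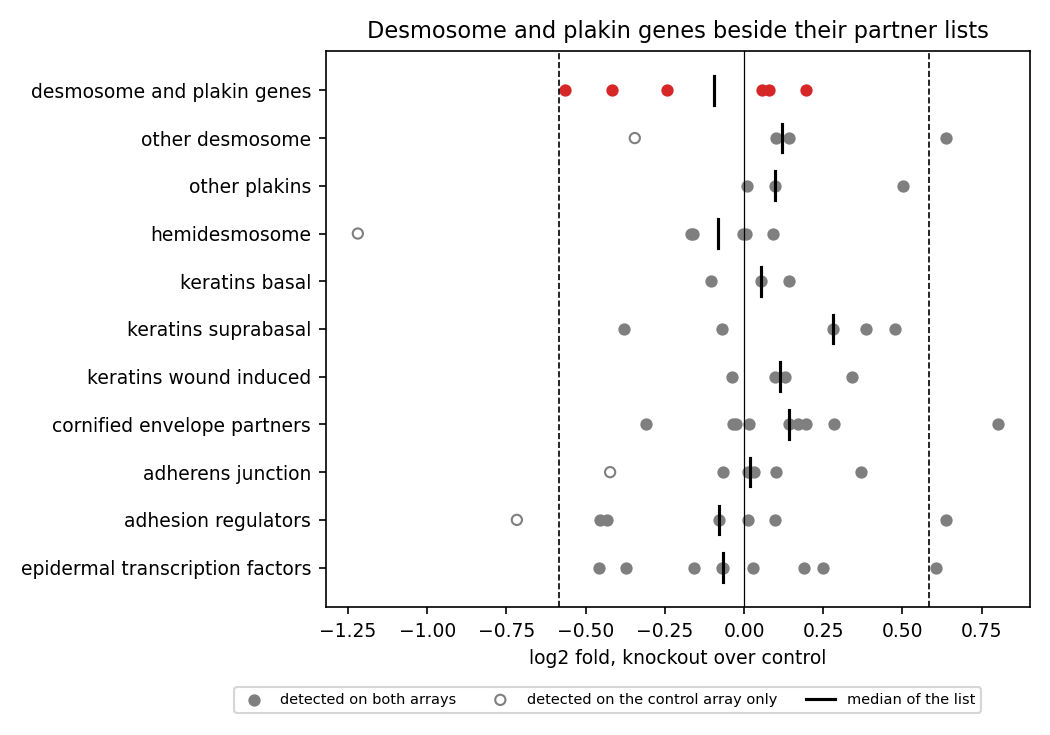
log2 fold (knockout over control) of the 6 detected desmosome and plakin genes (red) and of the detected genes of 10 partner lists (grey), with open circles for genes detected on the control array only, bars for list medians and dashed lines at 1.5-fold. The medians are -0.09 for the members (0.06 with the older-named Dsp probe counted), -0.08 for the hemidesmosome and the adhesion regulator list (0.02 and 0.01 with the mean of detected probes) and up to 0.28 for suprabasal keratins.

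Genes that act on desmosomal adhesion were divided. Of 7 detected, 1 was at least 1.5-fold lower and 1 at least 1.5-fold higher, with a median log2 fold of -0.08, or 0.01 with the mean of detected probes. Prkca, the protein kinase C form that returns desmosomes to calcium dependence in wounds, was detected in the control only (raw intensity 196 against 166.3) and gave a bound of at least 1.24-fold, so it counts as 1.5-fold lower by its measured value alone. Adam17, a protease that sheds cell-surface proteins, read 1038 on the control array and 757 on the knockout array (normalized intensity, log2 fold -0.46).

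Atp2a2, the calcium pump mutated in Darier disease, in which desmosomal adhesion fails, read 3147 on the control array and 4892 on the knockout array (0.64). The authors' normalized intensities gave 1.51-fold and median scaling 1.47-fold. It is also the pump of slow and cardiac muscle. Of the 14 striated muscle markers, all were detected, 8 read at least 1.5-fold higher in the knockout array and 0 lower. Myh7, detected on the knockout array only with a bound of at least 1.11-fold, counts by its measured value alone. The summed normalized intensity of the 14 markers was 97941 on the control array and 114769 on the knockout array. Myl2 read 104 against 4390, while the bright markers Acta1, Myl1, Tnni2 and Tnnt3 had log2 folds of -0.01, -0.10, -0.003 and 0.10. These marker values stand beside those of Atp2a2, and their part in its difference was not tested.

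Among 9 detected transcription factors of the epidermis, none was 1.5-fold lower and 1 was higher (median -0.07). Trp63, the p63 gene that maintains stratified epithelium, read 5121 on the control array and 3727 on the knockout array (log2 fold -0.46), and Klf4, a factor of barrier formation, read 1191 and 920 (-0.37). Snai1, a repressor of epithelial junction genes, read 559 and 850 (0.61), 1.45-fold in the authors' normalized intensities.

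The labelled tissue was checked by markers of its cells. All 7 keratinocyte markers with a probe were detected on both arrays and none was 1.5-fold apart, with a summed normalized intensity of 92441 on the control array and 94996 on the knockout array. Krt14 and Krt10 made up most of both sums, and Trp63 of the same list read -0.46. The part of keratinocyte number in the desmosomal differences was not tested. Of 6 markers of simple or glandular epithelium, 3 were detected, and Krt8, Krt18 and Krt19 were not. Krt23 was bright (raw intensity 6431.2 on the control array and 5905.1 on the knockout array). Cldn3 read 248.9 and 243.5, and Krt7 was detected in the control only (187.5 against 171). The list was thus divided on whether such epithelium was present. Langerhans and dendritic cell markers read lower in the knockout array (3 of 5 detected at least 1.5-fold, summed 32818 against 25207), as did red cell markers (3 of 4, summed 21906 against 6387). Of all detected genes, 4.47% were at least 1.5-fold lower and 3.51% higher. All 6 detected endothelial markers read above 0, with 1 at least 1.5-fold higher (summed 3825 against 4424). No detected fibroblast marker (summed 45704 against 41754) or leukocyte marker (summed 40621.5 against 46284.7) reached 1.5-fold. S100a8 and S100a9 made up most of both leukocyte sums, and Hba-a1 most of both red cell sums. The leukocyte list was divided. Itgam (-0.25), Adgre1 (-0.16) and Csf1r (-0.15) read below 0, S100a8 (0.14), S100a9 (0.36) and Cd3e (0.09) above, and Ptprc was not detected. The part of any of these cells in the desmosomal differences was not tested. The targeted gene Ctnnb1 read 2325 on the control array and 2344 on the knockout array on its brighter probe and 1048 and 932 on the other. Where these probes lie relative to the deleted part is not known here, so they do not check the labels.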

How the data were processed

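The authors deposited non-normalized probe intensity and normalized intensity for 25697 probes on 2 arrays, made with GenomeStudio 2011.1 per the submitters' processing notes; how they were normalized is not stated in these sources. The series' value table matched the normalized table at every one of 25697 probes. The deposited detection p-value of each probe is out of row order (rank correlation with intensity across probes 0.0024 and -0.00041), so sorted p-values were assigned to sorted intensities within each array.

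Non-normalized intensities were processed by neqc from limma 3.58.1, run in R 4.3.3 (normexp background from negative controls inferred from the detection p-values, offset 16, quantile normalization, log2). The processing was tested on simulated data with changes of at least 2-fold in brighter probes. That test does not cover smaller differences or dim probes. Quantile normalization removes any shift common to all genes, and the offset shrinks folds of dim probes. Of the file symbols, 25376 were matched to the RefSeq table of GRCm38.p6, used for names and gene order only. A gene takes its brightest probe. For genes detected on 1 array, the text gives bounds against the detection limit of the other. Counts, list medians and figures use the measured folds of these genes.

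With 1 array a group, nothing was tested. Members and lists were chosen with earlier results of these data known. The text names all members, all detected other desmosome and plakin genes, and up to 3 genes with the largest absolute log2 fold per partner list. Other genes named (markers with their sums, Ctnnb1, and Ttr as the neighbour of Dsg2) were not chosen by that rule, and their values had been seen.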

Additional observations from a re-analysis of the deposited data

How the results depend on the processing

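No member gene was 1.5-fold apart in the main processing, and 1 (Dsc1) was under median scaling, where the median of all detected genes moved too. The count was 0 under the 9 other settings tried, 2-fold included. Some of these could not have raised it. A 2-fold cut is stricter, and the bound for genes detected on 1 array altered no member, since all detected members were on both arrays. The detection p-values as listed left out Dsc1, Dsc3 and Pkp1. The member median ran from -0.26 in the non-normalized intensities to 0.06 with the older-named Dsp probe counted, against -0.09. It was 0.02 with no detection filter, which adds 2 undetected genes, and 0.04 with the detection p-values as listed, which call 5 of the 8 genes detected. The settings with non-normalized values, the Dsp probe and p-values as listed were added after the data were seen. Log2 folds ran from -0.68 to -0.32 for Dsc1, from -0.56 to -0.31 for Dsc3 and from -0.41 to -0.17 for Ppl. No paired analysis was possible because each group has 1 array. Intensity near the negative controls limits Dsc2 and Dsg2, and the number of arrays limits every difference.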
